A study of Homo sapiens with 7 samples.

Results

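HepG2, an established human liver cancer line, was given siRNA against TEAD1, and the small RNA libraries taken at 48 h were set against those taken at 24 h. TEAD1 is a DNA-binding factor that acts at the end of the Hippo pathway together with the coactivators YAP and TAZ. At each of these times there were 2 libraries, 1 with siRNA 1 and 1 with siRNA 2, and all 4 carry the genotype label of a TEAD1 knockdown. Of the 2652 human miRNAs in the files, 437 had a mean count of at least 10 over the 4 libraries and were tested. They held 99.9% of the miRNA reads of these libraries. The series has 7 libraries in all. The untreated library (0 h) and the pair of 36 h libraries stayed outside the test and are given only as values. The labels name no library of cells with a control siRNA, so the loss of TEAD1, the transfection and the hours in culture cannot be told apart. The TEAD1 mRNA was not measured in these small RNA libraries. The labels do not say whether the libraries are separate cultures. The p-values therefore reflect the spread between the libraries as deposited. That spread includes any difference between siRNA 1 and siRNA 2, and the rest of it may be technical.

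A miRNA is cut from a hairpin in a longer transcript. Either arm of the hairpin, named 5p and 3p, can be loaded into an Argonaute protein as the guide strand, while the passenger strand is mostly lost. The guide finds target mRNAs mainly through its seed, the bases near its 5′ end, and miRNAs with the same seed form a family that can share targets. Hairpins that lie close together are often cut from 1 transcript, but their mature strands can still differ in stability.

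The mature sequences of the miRNAs that the results turn on are shown first, 5′ to 3′, with the seed (bases 2 to 8) in capitals. They are the sequences in the deposited tables. Of the 437 tested miRNAs, 392 have an entry of the same name in RefSeq (GRCh38.p14), and the sequence was identical for all 392. The first set holds miRNAs that were lower at 48 h and rich in A and U.
miR-101-3p: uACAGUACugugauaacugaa
miR-340-5p: uUAUAAAGcaaugagacugauu
miR-374a-3p: cUUAUCAGauuguauuguaauu
miR-29b-3p: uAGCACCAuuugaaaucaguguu
miR-32-5p: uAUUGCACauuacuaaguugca
The second set shows families with a shared seed in which most members were lower, namely the miR-17 family, miR-19 and the miR-130, miR-301 and miR-454 family.
miR-17-5p: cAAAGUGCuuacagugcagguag
miR-20a-5p: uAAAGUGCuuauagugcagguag
miR-106b-5p: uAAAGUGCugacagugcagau
miR-93-5p: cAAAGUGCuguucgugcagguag
miR-19a-3p: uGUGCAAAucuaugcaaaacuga
miR-19b-3p: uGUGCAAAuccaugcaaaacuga
miR-301a-3p: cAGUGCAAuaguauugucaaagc
miR-454-3p: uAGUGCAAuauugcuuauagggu
The third set shows miRNAs that were higher at 48 h.
miR-1260b: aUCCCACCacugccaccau
let-7b-3p: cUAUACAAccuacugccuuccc
let-7d-3p: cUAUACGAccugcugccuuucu
miR-615-3p: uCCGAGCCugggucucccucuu
miR-7706: uGAAGCGCcugugcucugccgaga
miR-99a-5p: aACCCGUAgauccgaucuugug
miR-100-5p: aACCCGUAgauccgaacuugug
The last set shows sequences whose close relatives above or here behaved differently: 1 let-7 guide that was lower and 1 that did not pass the test, 2 miRNAs with the seed of miR-32-5p, 1 with the seed of miR-29b-3p, and the opposite arms of the miR-340 and miR-671 hairpins.
let-7a-5p: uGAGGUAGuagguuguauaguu
let-7f-5p: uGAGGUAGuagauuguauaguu
miR-92a-3p: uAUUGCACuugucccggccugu
miR-25-3p: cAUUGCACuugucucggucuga
miR-29a-3p: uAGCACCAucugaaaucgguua
miR-340-3p: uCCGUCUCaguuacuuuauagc
miR-671-5p: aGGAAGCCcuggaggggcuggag
miR-671-3p: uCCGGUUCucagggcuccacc

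At 48 h, 127 of the 437 tested miRNAs differed from 24 h at an adjusted p under 0.05, which is 29.1% of those tested (edgeR's quasi-likelihood test with Benjamini-Hochberg adjustment). Of these, 54 rose (12.4%) and 73 fell (16.7%). The falls were the larger changes. Among the called miRNAs, 58 fell and 29 rose by at least 2-fold, and 24 fell and 5 rose by at least 4-fold. miRNAs that rose went from 7.43% to 17.0% of the miRNA reads, and those that fell went from 36.1% to 25.1%. Levels are given as CPM, the read count scaled to the miRNA reads of the library with TMM factors, with siRNA 1 before siRNA 2. Differences are log2 fold changes of 48 h over 24 h with their standard error (SE). Without regard to the test, both 48 h libraries lay above both 24 h libraries for 135 miRNAs (30.9%) and below them for 137 (31.4%). Of the 127 called miRNAs, 126 had no overlap between the times (53 higher and 73 lower), and miR-12136 was the exception. The calls and the separation come from the same 4 libraries, so this count gives no separate support to the calls. The differences seen with siRNA 1 and with siRNA 2 had the same sign for 300 of 437 miRNAs, and across miRNAs their Pearson r was 0.69 (rho = 0.61), as a description of 437 points that share their libraries.

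**Figure D1:**
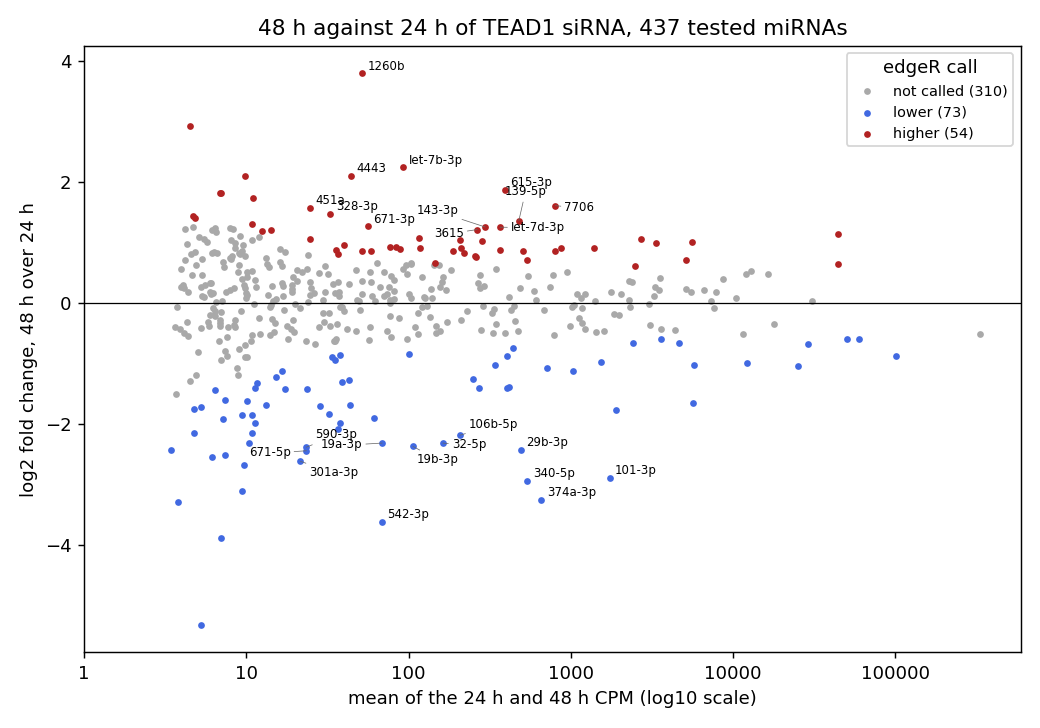
Log2 fold change of 48 h over 24 h (y axis) against the mean CPM of both times (x axis, log scale) for the 437 tested miRNAs, 1 point each, red for the 54 called higher, blue for the 73 called lower and grey for the 310 not called by edgeR. Names mark the 12 largest rises and 12 largest falls, all with a mean count of 50 or more, and the lowest points reach below -3 while only miR-1260b lies above 3.

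The counts depended on which libraries entered the fit. A fit of all 7 libraries with time as a factor called 0 miRNAs between these times (edgeR). In that fit 80 had an unadjusted p under 0.05, and the lowest adjusted p was 0.209. Its spread also comes from the 36 h libraries, where the SD over miRNAs of the difference between siRNA 2 and siRNA 1 was 1.21 on the log2 scale, against 0.57 at 24 h and 0.48 at 48 h. Within the 4-library design, leaving out siRNA 2 at 24 h left 20 calls (4 higher and 16 lower) and ended 106 of the 127, leaving out siRNA 1 at 48 h left 75, leaving out siRNA 2 at 48 h left 63 and leaving out siRNA 1 at 24 h gave 132. The 20 that stayed called without siRNA 2 at 24 h were let-7b-3p, miR-1260b, miR-615-3p and miR-7706 among the rises, and miR-101-3p, miR-122-5p, miR-19a-3p, miR-19b-3p, miR-20a-5p, miR-21-3p, miR-29b-3p, miR-32-5p, miR-340-5p, miR-3613-5p, miR-374a-3p, miR-374a-5p, miR-378c, miR-542-3p, miR-651-5p and miR-652-5p among the falls. Each such fit has a lone library at 1 time, which is assumed to vary like the pair at the other. The split of 54 higher and 73 lower also moved with the scale. With total miRNA counts as the scale it was 104 higher and 53 lower, with all reads of a library as the scale 8 and 53, and after removal of a GC trend 65 and 57. With these scales the median log2 fold change of all tested miRNAs was 0.38 (total counts) and -0.15 (all reads), against 0.09 with TMM factors. No called miRNA changed direction under any alternative run.

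The libraries differed in their miRNA content. Between 2095438 and 3739729 reads per library were assigned to a miRNA. The miRNA share of all reads was 26.5% and 18.0% at 24 h and 15.2% and 15.9% at 48 h, with 43.1% in untreated cells and 13.4% and 15.8% at 36 h. The 24 h libraries lay above the 48 h ones, and the exact permutation test gave p = 0.333, the smallest that 2 against 2 can give (two-sided). The part of this difference in the results for single miRNAs was not tested beyond the scales above. An absent miRNA could still have had up to 3 reads, which is 0.847 to 1.33 CPM in these 4 libraries, and this limit covers counting error only.

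The libraries outside the test fell mainly on one side or the other. For 119 of the 127 called miRNAs the untreated library was nearer on the log2 scale to the 24 h mean than to the 48 h mean. The library of siRNA 1 at 36 h was also nearer to 24 h, for 112 of the 127. The library of siRNA 2 at 36 h was nearer to 48 h for 114 of the 127 (89.8%). It lay above both 48 h libraries for 17 of the 54 miRNAs that rose and below both for 36 of the 73 that fell. All these counts cover only called miRNAs, which were chosen because 24 h and 48 h differed. The shares over all tested miRNAs were not counted. The plot of the 24 named miRNAs shows the values of each library outside the test.

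**Figure D2:**
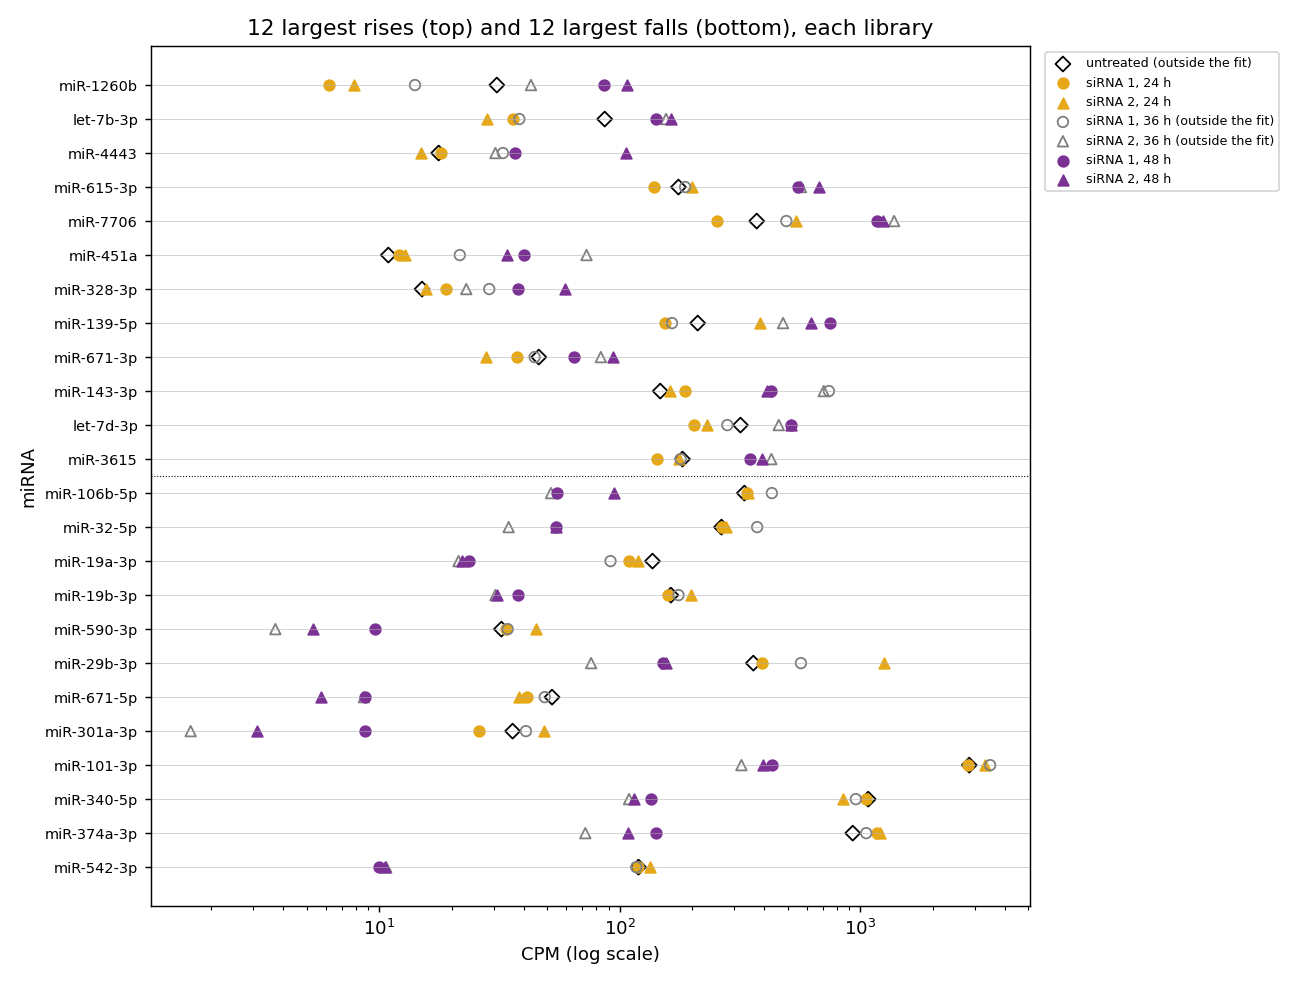
CPM (x axis, log scale) of the 12 largest rises (upper rows) and 12 largest falls (lower rows) in each of the 7 libraries; circles are siRNA 1, triangles siRNA 2 and diamonds untreated cells, filled symbols are the 24 h (yellow) and 48 h (purple) libraries of the test, and open symbols were outside it. In most of the falls the untreated library and siRNA 1 at 36 h lie with the 24 h libraries while siRNA 2 at 36 h lies with the 48 h libraries, as for miR-542-3p with 120 and 117 against 10.7 CPM.

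Among miRNAs with a mean count of 50 or more, the largest falls were in miR-542-3p, miR-374a-3p, miR-340-5p and miR-101-3p, which all dropped more than 4-fold. miR-542-3p, which comes from a cluster on the X chromosome with miR-424 and miR-503, stood at 119 and 134 CPM at 24 h and 9.99 and 10.6 CPM at 48 h. The log2 fold change was -3.61 ± 0.33 (SE; adjusted p = 1.16e-14). miR-374a-3p (RefSeq GRCh38.p14, chrX:74287295-74287316 (- strand)) lies in an intron of FTX, a long non-coding RNA gene of the X-inactivation centre. It stood at 1178 and 1205 CPM at 24 h and 142 and 108 CPM at 48 h, and the log2 fold change was -3.25 ± 0.25 (SE; adjusted p = 3.85e-17). miR-340-5p, from an intron of RNF130 at chr5:180015361-180015382 (- strand), stood at 1060.5 and 848 CPM at 24 h and 135 and 115 CPM at 48 h, and the log2 fold change was -2.93 ± 0.25 (SE; adjusted p = 1.60e-15). For both, the pair of libraries at each time lay close together and far from the other pair.

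miR-101-3p, known for targeting the chromatin modifier EZH2, was the most abundant of these. It stood at 2806 and 3315 CPM at 24 h and 432 and 395 CPM at 48 h, with 3471 CPM with siRNA 1 and 321 CPM with siRNA 2 at 36 h, and 2841 CPM in untreated cells. The log2 fold change was -2.89 ± 0.23 (SE; adjusted p = 1.63e-16). Outside the test, only siRNA 2 at 36 h was as low as the 48 h libraries. One hairpin that can give miR-101-3p is MIR101-2, in an intron of RCL1 at chr9:4850345-4850365 (+ strand). miR-32-5p, from an intron of TMEM245 at chr9:109046272-109046293 (- strand), stood at 266 and 276 CPM at 24 h and 54.5 and 54.4 CPM at 48 h, and the siRNAs differed by less than 1 CPM at 48 h. Its log2 fold change was -2.31 ± 0.27 (SE; adjusted p = 1.21e-10). The other tested miRNAs with the seed of miR-32-5p did not pass the test: miR-92a-3p had a log2 fold change of 0.48 ± 0.22 (adjusted p = 0.0968), miR-92b-3p one of 0.46 ± 0.23 (adjusted p = 0.125) and miR-25-3p one of 0.24 ± 0.22 (adjusted p = 0.439).

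Among miRNAs of the miR-29 family, which is known for targeting collagen and other matrix mRNAs, 2 of 5 tested fell and none rose. The shares over all tested miRNAs were 16.7% lower and 12.4% higher. miR-29b-3p stood at 390.5 and 1262 CPM at 24 h and 151 and 157 CPM at 48 h, so at 24 h the library of siRNA 2 was more than 3-fold above that of siRNA 1, and both lay above the 48 h libraries. Its log2 fold change was -2.42 ± 0.29 (SE; adjusted p = 2.88e-10), with -1.37 (adjusted p = 0.0458) without siRNA 2 at 24 h and -3.09 without siRNA 1 at 24 h. miR-29c-3p fell by 1.22 on the log2 scale (adjusted p = 0.0334), a call that held only in the fit without siRNA 1 at 24 h when libraries were left out. miR-29a-3p, which has the same seed, stood at 1584 and 1730.0 CPM at 24 h and 1747 and 1992 CPM at 48 h and did not pass the test, with a log2 fold change of 0.17 ± 0.22 (SE; adjusted p = 0.591). The median of the 5 was -0.94, against 0.09 over all tested miRNAs, and with a mean count of at least 50 only 3 members were tested and their median was 0.00.

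The miR-17~92 cluster is a polycistron known as an oncogenic cluster that MYC can activate. Its 6 hairpins lie within chr13:91350605-91351391, in exons of the host transcript MIR17HG (RefSeq positions, GRCh38.p14, and GENCODE host). Of its 10 tested strands 6 fell, 1 rose and 3 did not pass the test, beside 16.7% lower and 12.4% higher over all tested miRNAs. The median of the 10 was -1.15. miR-20a-5p, a guide of the miR-17 family, stood at 3210.4 and 2711 CPM at 24 h and 814 and 916 CPM at 48 h, and the log2 fold change was -1.78 ± 0.22 (SE; adjusted p = 1.36e-09). miR-19b-3p stood at 159 and 198 CPM at 24 h and 37.9 and 31.0 CPM at 48 h, and the log2 fold change was -2.37 ± 0.28 (SE; adjusted p = 2.88e-10), and miR-19a-3p fell by 2.31 on the log2 scale (adjusted p = 2.24e-09). miR-17-5p fell by less, with 2009 and 2088 CPM at 24 h and 954 and 1124 CPM at 48 h and a log2 fold change of -0.98 ± 0.22 (SE; adjusted p = 0.000289). miR-92a-3p, the most abundant strand of the cluster, did not pass the test: it stood at 15688 and 11762 CPM at 24 h and 17325 and 20837 CPM at 48 h. The strands of the list spread over 3.17 log2 units. miR-19b-3p and miR-92a-3p also have a hairpin on the X chromosome in RefSeq, and their reads cannot be assigned to 1 of the hairpins. Without siRNA 2 at 24 h the calls in the cluster were 3 lower and 0 higher, without siRNA 1 at 48 h 4 lower and 0 higher (miR-17-5p at -0.86), and with total counts as the scale they were 5 lower and 2 higher.

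The related clusters gave a similar picture for the miR-17 seed. Of the miR-106a cluster on the X chromosome, which holds those second hairpins, the 3 tested strands other than miR-19b-3p and miR-92a-3p fell (miR-106a-5p, miR-18b-5p and miR-20b-5p), with miR-106a-5p at 70.9 and 50.4 CPM at 24 h and 21.2 and 29.2 CPM at 48 h (log2 fold change -1.27 ± 0.31 (SE; adjusted p = 0.000965)), a call lost without siRNA 1 at 48 h (-1.06) and without siRNA 2 at 24 h (-1.52). In the miR-106b~25 cluster, which lies in an intron of the replication gene MCM7, only miR-106b-5p of 6 tested strands passed the test. It stood at 339 and 341 CPM at 24 h and 54.9 and 94.7 CPM at 48 h, and the log2 fold change was -2.18 ± 0.27 (SE; adjusted p = 7.56e-10). Its own opposite arm, miR-106b-3p, was more abundant, at 2058 and 1899 CPM at 24 h and 1734 and 1735 CPM at 48 h, and did not pass the test (adjusted p = 0.552). miR-93-5p, from the same intron and with the seed of miR-106b-5p, was also below the threshold for a call, at 1599 and 1218 CPM at 24 h and 894 and 1208 CPM at 48 h (adjusted p = 0.148). The median of the miR-106b~25 strands was -0.23 and turned to 0.05 with total counts as the scale. Over the 6 tested miRNAs with the seed AAAGUGC, 5 fell and none rose, with a median of -1.45, beside 16.7% lower over all tested miRNAs. Of the 5, only miR-20a-5p was called without siRNA 2 at 24 h and only miR-20a-5p and miR-106b-5p without siRNA 1 at 48 h, and miR-20b-5p lost its call without siRNA 2 at 48 h (-1.48).

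Further families and clusters held falls and no rise, beside 16.7% lower and 12.4% higher over all tested miRNAs. In the miR-130, miR-301 and miR-454 family 4 of 5 members fell, with a median of -1.03. miR-301a-3p, from an intron of SKA2, stood at 26.0 and 48.4 CPM at 24 h and 8.74 and 3.10 CPM at 48 h, and the log2 fold change was -2.62 ± 0.44 (SE; adjusted p = 2.93e-06). miR-454-3p, the most abundant member, stood at 442 and 479 CPM at 24 h and 231 and 219 CPM at 48 h, and the log2 fold change was -1.03 ± 0.24 (SE; adjusted p = 0.000539). Without siRNA 2 at 24 h none of the 5 was called, with the median at -0.99, and without siRNA 2 at 48 h only miR-301a-3p and miR-301b-3p were called (miR-454-3p at -0.99). In the miR-378 family, whose member miR-378a lies in the metabolic coactivator gene PPARGC1B, miR-378c stood at 57.3 and 64.1 CPM at 24 h and 15.0 and 15.5 CPM at 48 h, and the log2 fold change was -1.99 ± 0.33 (SE; adjusted p = 1.75e-06), and miR-378d and miR-378i also fell, though without siRNA 1 at 48 h they were not called (-1.36 and -1.31), nor without siRNA 2 at 24 h (-2.14 and -1.64), and miR-378i was not called without siRNA 2 at 48 h (-1.53). The far more abundant miR-378a-3p, with the same seed, did not pass the test, with a log2 fold change of -0.36 ± 0.22 (adjusted p = 0.214). In the list of miR-374 and miR-421, 3 of 5 strands fell, with a median of -1.41. Of the miR-424, miR-503, miR-542 and miR-450 cluster 2 of 6 fell, miR-542-3p and miR-424-5p. miR-424-5p, of the growth-inhibiting miR-16 family, stood at 18.4 and 14.9 CPM at 24 h and 1.66 and 3.54 CPM at 48 h, and the log2 fold change was -2.67 ± 0.54 (SE; adjusted p = 7.54e-05), while the other 3 tested members of the miR-15 and miR-16 family did not pass the test.

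Of the 12 largest falls, miR-590-3p, from an intron of EIF4H, stood at 33.6 and 45.1 CPM at 24 h and 9.57 and 5.31 CPM at 48 h and fell by 2.38 on the log2 scale (adjusted p = 3.31e-06). miR-671-5p, from an exon of CHPF2, stood at 41.2 and 38.0 CPM at 24 h and 8.74 and 5.75 CPM at 48 h and fell by 2.44 (adjusted p = 1.74e-06). That the times did not overlap was a condition for entering the 12. Without siRNA 2 at 24 h, the calls of miR-301a-3p, miR-671-5p, miR-590-3p and miR-106b-5p were lost and those of the other 8 held. In that fit the log2 fold change of miR-106b-5p was -2.21 (adjusted p = 0.0587). All 12 calls held when any 1 of the other 3 libraries was left out.

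miR-7-5p, an abundant miRNA known for targeting the EGFR receptor, was highest in untreated cells and fell from 24 h to 48 h. It stood at 34106 and 34000.0 CPM at 24 h and 20185 and 13026 CPM at 48 h, with 20147 CPM with siRNA 1 and 19974 CPM with siRNA 2 at 36 h, and 59975 CPM in untreated cells. The log2 fold change of 48 h over 24 h was -1.04 ± 0.23 (SE; adjusted p = 0.000203), and the call was lost in the fits without the siRNA 2 library of 24 h (-1.05, adjusted p = 0.152) or of 48 h (-0.75, adjusted p = 0.087) and after removal of a GC trend. miR-7-1-3p, the opposite arm of 1 of its hairpins, also fell, with 39.2 and 47.5 CPM at 24 h and 12.9 and 13.7 CPM at 48 h and a log2 fold change of -1.70 ± 0.36 (SE; adjusted p = 0.000128). miR-582-3p stood at 6492 and 10693 CPM at 24 h and 2904 and 2535 CPM at 48 h, and the log2 fold change was -1.66 ± 0.23 (SE; adjusted p = 1.75e-08). It was chosen after its values were seen, as the largest called fall among miRNAs above 1000 CPM in all 4 libraries, and its call was lost without siRNA 2 at 24 h (-1.28, adjusted p = 0.0581).

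The largest rise was in miR-1260b, which was placed on the list of miRNA entries within structural RNAs such as tRNA and snoRNA. In GENCODE its position lay between genes on its strand, and an overlap with a structural RNA was not tested. It stood at 6.21 and 7.85 CPM at 24 h and 86.2 and 107 CPM at 48 h, with 14.1 CPM with siRNA 1 and 42.8 CPM with siRNA 2 at 36 h, and 30.9 CPM in untreated cells. The log2 fold change was 3.79 ± 0.35 (SE; adjusted p = 1.97e-14). The 48 h libraries lay far above the 24 h ones, and untreated cells lay between. Of the 7 tested members of the structural RNA list, 2 rose and none fell, with a median of 0.77, beside 12.4% higher and 16.7% lower over all tested miRNAs. The other was miR-12136, at 20.6 and 29.8 CPM at 24 h and 62.0 and 29.6 CPM at 48 h, whose times overlapped and whose call held only in the fit without siRNA 2 at 48 h when libraries were left out.

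miR-615-3p and miR-7706 were the largest rises above 100 CPM in all 4 libraries. miR-615-3p, from an intron in the HOXC cluster at chr12:54034010-54034031 (+ strand), stood at 139 and 199 CPM at 24 h and 554 and 675 CPM at 48 h, and the log2 fold change was 1.86 ± 0.25 (SE; adjusted p = 8.04e-09). Of the 7 tested miRNAs of the HOX clusters it was the only rise, beside 12.4% higher over all tested miRNAs. The abundant miR-10a-5p, miR-10b-5p, miR-196a-5p and miR-196b-5p did not pass the test, with log2 fold changes of 0.18, -0.03, 0.19 and 0.10. miR-7706, from an exon of AKAP13 at chr15:85380639-85380662 (+ strand), stood at 254 and 541 CPM at 24 h and 1178 and 1241 CPM at 48 h, and the log2 fold change was 1.61 ± 0.25 (SE; adjusted p = 3.98e-07). miR-139-5p, from an intron of PDE2A, stood at 154 and 383 CPM at 24 h and 748 and 626 CPM at 48 h, and the log2 fold change was 1.36 ± 0.26 (SE; adjusted p = 3.31e-05). In miR-7706 and miR-139-5p the siRNA 2 library at 24 h was more than 2-fold above that of siRNA 1. Their lack of overlap between the times was a condition for being named. The log2 fold change of miR-7706 was 2.23 without siRNA 2 at 24 h.

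Of the other large rises, miR-4443 stood at 18.1 and 14.9 CPM at 24 h and 36.6 and 106 CPM at 48 h, and most of its log2 fold change of 2.10 ± 0.35 (SE; adjusted p = 1.75e-06) came from siRNA 2. Without that library at 48 h it was 1.15 (adjusted p = 0.117). miR-328-3p stood at 18.9 and 15.7 CPM at 24 h and 37.9 and 59.3 CPM at 48 h and miR-671-3p at 37.6 and 27.7 CPM at 24 h and 64.5 and 93.8 CPM at 48 h, and both also lost their call without siRNA 2 at 48 h (adjusted p = 0.118 and 0.109). miR-3615, from an exon of SLC9A3R1, stood at 143 and 176 CPM at 24 h and 348 and 389.7 CPM at 48 h, and the log2 fold change was 1.21 ± 0.25 (SE; adjusted p = 8.48e-05). Without siRNA 2 at 24 h, the calls of miR-1260b, let-7b-3p, miR-615-3p and miR-7706 held and those of the other 8 of the 12 largest rises were lost. With all reads of a library as the scale, miR-451a, miR-328-3p, miR-671-3p, miR-143-3p, let-7d-3p and miR-3615 were no longer called.

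miR-143-3p, in smooth muscle and fibroblasts an abundant miRNA, stood at 187 and 162 CPM at 24 h and 425 and 409.6 CPM at 48 h, and the log2 fold change was 1.25 ± 0.25 (SE; adjusted p = 4.01e-05). It was higher still in both 36 h libraries, at 742 and 706 CPM, and stood at 148 CPM in untreated cells. The 6 fibroblast and smooth muscle markers together gave 196 and 170 CPM at 24 h and 446 and 428 CPM at 48 h, nearly all from miR-143-3p, and miR-214-3p, the marker of this list closest to 0, had at most 1 read per library. miR-145-5p, which shares a transcript with miR-143, was below the count filter, at 0.847 and 0 CPM at 24 h and 8.32 and 4.42 CPM at 48 h, with 3.02 and 10.3 CPM at 36 h. miR-451a, the miRNA of red blood cells, stood at 12.1 and 12.8 CPM at 24 h and 40.0 and 34.1 CPM at 48 h, and the log2 fold change was 1.57 ± 0.37 (SE; adjusted p = 0.00057), and its call was lost without siRNA 1 at 48 h (adjusted p = 0.053). The 8 blood cell markers together gave 15.5 and 16.1 CPM at 24 h and 44.5 and 39.4 CPM at 48 h, miR-223-3p was at 0 in all 4 libraries, and miR-144-3p had at most 2 reads. The part of RNA from other cells in these rises was not tested. Among hepatocyte miRNAs, miR-122-5p, the dominant miRNA of liver tissue, was low in these HepG2 libraries, at 30.8 and 4.55 CPM at 24 h and 4.16 and 3.98 CPM at 48 h. Its call as lower (adjusted p = 0.00152) rested on siRNA 1 at 24 h, and without that library the log2 fold change was -0.21 (adjusted p = 0.853). miR-192-5p rose, with 2080.0 and 1852 CPM at 24 h and 2921 and 3093 CPM at 48 h and a log2 fold change of 0.61 ± 0.22 (SE; adjusted p = 0.0237), a call that held only in the fit without siRNA 1 at 24 h when libraries were left out. miR-194-5p stood at 84.4 and 67.8 CPM at 24 h and 79.9 and 94.2 CPM at 48 h and did not pass the test, with a log2 fold change of 0.19 ± 0.27 (SE; adjusted p = 0.648). miR-885-5p and miR-122-3p were at 0 in all 4 libraries.

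The 8 most abundant miRNAs moved less on the log2 scale than the 12 largest rises and 12 largest falls, which were chosen by size. All of the 8 but miR-21-5p and let-7a-5p were called, beside 29.1% of all tested miRNAs. miR-21-5p, an oncogenic miRNA that is high in many cancers, stood at 306991 and 476821 CPM at 24 h and 279262 and 270523 CPM at 48 h and did not pass the test, with a log2 fold change of -0.51 ± 0.24 (SE; adjusted p = 0.109). Its siRNA 2 library at 24 h stood apart, and without siRNA 1 at 24 h it was called lower (adjusted p = 0.000487). Its opposite arm, miR-21-3p, fell, with 657 and 548 CPM at 24 h and 207 and 252 CPM at 48 h and a log2 fold change of -1.39 ± 0.24 (SE; adjusted p = 4.13e-06). miR-99a-5p, from an intron of MIR99AHG beside let-7c, stood at 29151 and 25968 CPM at 24 h and 56685 and 65276 CPM at 48 h, and the log2 fold change was 1.15 ± 0.22 (SE; adjusted p = 3.97e-05). miR-100-5p, which differs from it by 1 base (U16A, counted from the 5′ end), stood at 36509 and 32162 CPM at 24 h and 49716 and 58128 CPM at 48 h, and the log2 fold change was 0.65 ± 0.22 (SE; adjusted p = 0.0195). Both calls were lost with all reads of a library as the scale and without siRNA 2 at 24 h (log2 fold changes 1.04 and 0.54), and that of miR-100-5p also without siRNA 1 (0.76) or siRNA 2 (0.54) at 48 h. miR-99b-5p, with the same seed, stood at 6911 and 5361 CPM at 24 h and 6634 and 7548 CPM at 48 h and did not pass the test (adjusted p = 0.513). Of the 11 tested strands of miR-99, miR-100, miR-125a and miR-125b 3 rose and 1 fell, beside 12.4% higher and 16.7% lower over all tested miRNAs. Their median was 0.21, or -0.08 with all reads as the scale.

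The let-7 guides, known as inhibitors of LIN28, MYC and RAS family mRNAs, split. Of 9 tested guides 4 fell, none rose and 5 did not pass the test, beside 16.7% lower and 12.4% higher over all tested miRNAs. Their median of -0.20 turned to 0.10 with total counts as the scale and to 0.15 after removal of a GC trend. let-7f-5p stood at 140135 and 120311 CPM at 24 h and 71401 and 70149 CPM at 48 h, and the log2 fold change was -0.88 ± 0.23 (SE; adjusted p = 0.00187). let-7a-5p, which differs from it by 1 base (G12A, with let-7a-5p first), stood at 32049 and 28632 CPM at 24 h and 28389 and 33651 CPM at 48 h, with a log2 fold change of 0.03 ± 0.22 (SE; adjusted p = 0.918) and overlapping times. let-7i-5p and let-7g-5p had log2 fold changes of -0.60 ± 0.22 (SE; adjusted p = 0.0332) and -0.68 ± 0.23 (SE; adjusted p = 0.0154). Of the other abundant miRNAs, miR-30a-5p stood at 73039 and 71490.3 CPM at 24 h and 46158 and 50024 CPM at 48 h, and the log2 fold change was -0.59 ± 0.22 (SE; adjusted p = 0.039). The calls of let-7f-5p, let-7i-5p, let-7g-5p and miR-30a-5p were lost with total counts, with all reads, without siRNA 2 at 24 h and after removal of a GC trend, where their log2 fold changes were -0.25, -0.25, -0.20 and -0.38. Those of let-7i-5p, let-7g-5p and miR-30a-5p were also lost without siRNA 1 at 48 h (-0.53, -0.59 and -0.53) and without siRNA 2 at 48 h (-0.68, -0.78 and -0.64), and that of let-7g-5p without siRNA 1 at 24 h (-0.41). Members that differ by 1 base can take each other's reads, so their counts are uncertain.

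The let-7 passenger strands had larger fold changes in both directions. Of 10 tested, 2 rose and 3 fell, beside 12.4% higher and 16.7% lower over all tested miRNAs. The median of the 10 was 0.18 (-0.12 with all reads as the scale). let-7b-3p, from an exon of MIRLET7BHG at chr22:46113745-46113766 (+ strand), stood at 36.1 and 28.1 CPM at 24 h and 142 and 164 CPM at 48 h, and the log2 fold change was 2.24 ± 0.28 (SE; adjusted p = 1.36e-09). let-7d-3p stood at 204 and 230.3 CPM at 24 h and 514 and 518 CPM at 48 h, and the log2 fold change was 1.25 ± 0.24 (SE; adjusted p = 3.14e-05). The guides of the same hairpins, let-7b-5p and let-7d-5p, did not pass the test, with log2 fold changes of 0.40 ± 0.22 and -0.20 ± 0.22. let-7f-2-3p, let-7g-3p and miR-98-3p fell, by 1.42, 1.75 and 1.12 on the log2 scale. let-7f-2-3p and miR-98-3p lost their calls without siRNA 1 at 48 h (-1.32 and -1.59), let-7g-3p and miR-98-3p without siRNA 2 at 48 h (-1.31 and -0.77), and all 3 without siRNA 2 at 24 h (-1.74, -1.60 and -1.03).

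**Figure D3:**
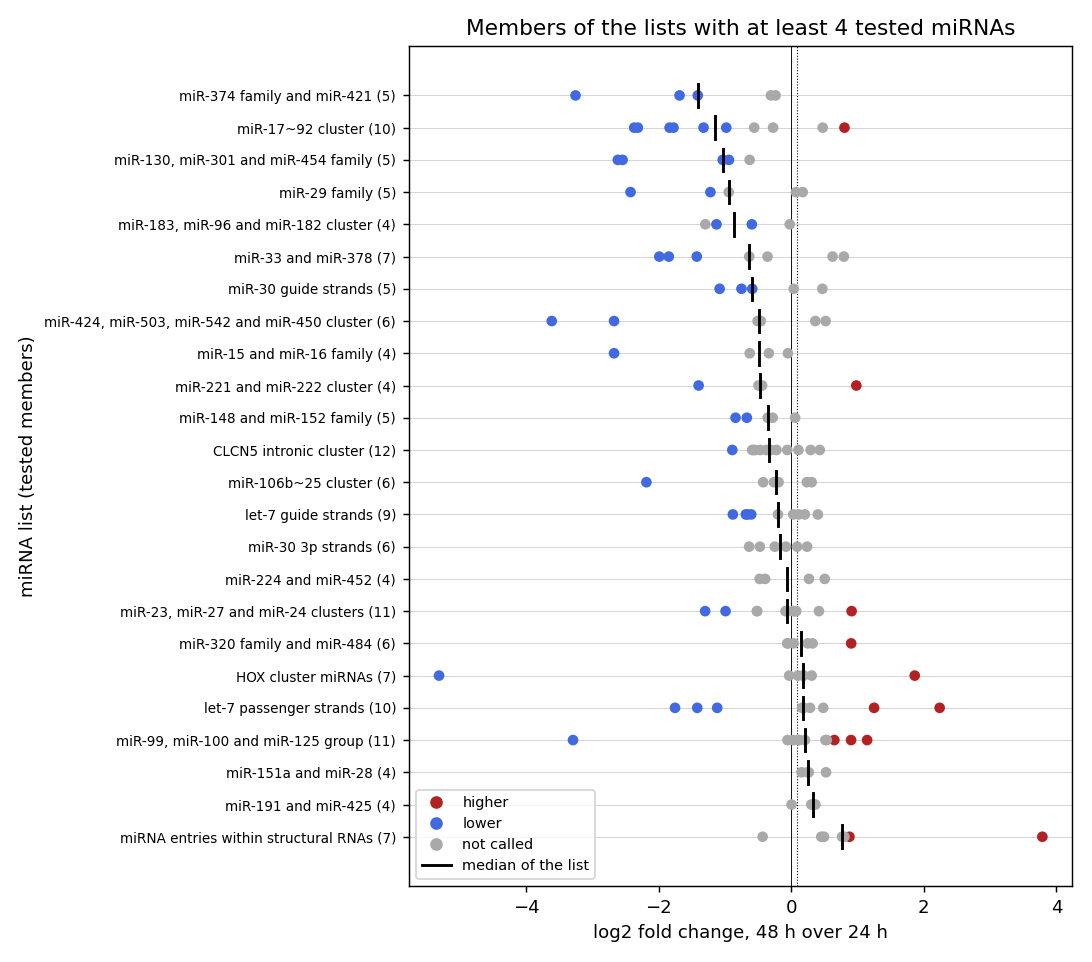
Log2 fold change of 48 h over 24 h (x axis) of each tested member of the lists with at least 4 tested members (y axis, number of members in brackets), red for called higher, blue for called lower and grey for not called; black bars are list medians, and the dotted line is the median of all tested miRNAs at 0.09. The medians run from -1.41 in the list of miR-374 and miR-421 to 0.77 in the miRNA entries within structural RNAs, and every list above the miR-320 row but the miR-30 3p strands and the miR-224 and miR-452 list holds at least 1 blue point.

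Of the remaining lists, the guide strands of the miR-30 family had 3 falls among 5 (median -0.59), and miR-30b-5p fell most, standing at 1052 and 885 CPM at 24 h and 371 and 547 CPM at 48 h. Its call was lost without siRNA 2 at 24 h (-1.23) and without siRNA 1 at 48 h (-0.82). In the cluster of miR-183, miR-96 and miR-182, known from sensory cells, 2 of 4 fell, with miR-96-5p at 1134 and 1681 CPM at 24 h and 634 and 655 CPM at 48 h. Neither was called without siRNA 2 at 24 h, and miR-182-5p lost its call whichever library was left out (-0.43 to -0.80). The miR-23, miR-27 and miR-24 clusters had 1 rise and 2 falls among 11, near the shares of 12.4% higher and 16.7% lower over all tested miRNAs. Their median of -0.06 turned to 0.22 with total counts as the scale. Their abundant guides split, as miR-23b-3p had a log2 fold change of 0.91 ± 0.22 (SE; adjusted p = 0.000816) and miR-27a-3p one of -0.99 ± 0.22 (SE; adjusted p = 0.000289). Both were lost without siRNA 2 at 24 h (0.97 and -1.23), miR-23b-3p also without siRNA 2 at 48 h (0.71) and miR-27a-3p without siRNA 1 at 48 h (-0.82). In the list of miR-103 and miR-107, miR-103a-3p fell, standing at 8091 and 7324 CPM at 24 h and 3432 and 4129 CPM at 48 h. miR-210-3p, the miRNA of the hypoxia response, stood at 157 and 162 CPM at 24 h and 182 and 380.0 CPM at 48 h and rose (adjusted p = 0.0132), a call lost without siRNA 2 at 24 h (0.80) and without siRNA 2 at 48 h (0.20). No member was called in the lists of the miR-26 family (2 tested), the miR-181 family (3), mirtrons (3), miR-224 and miR-452 (4), miR-191 and miR-425 (4), miR-151a and miR-28 (4), miR-675 and miR-483 (2), the miR-30 3p strands (6), miR-34 (1) and the inflammation-linked miRNAs (1).

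Both arms were tested for 107 hairpins. Ratios between the arms are ratios of reads. In 56 of the hairpins neither arm was called, in 39 1 arm was called, in 5 both fell, in 2 both rose, and in 5 the arms were called in opposite directions. The shares over all tested miRNAs were 12.4% higher and 16.7% lower. Whether these pair counts differ from those of unrelated miRNAs was not tested. The signs matched in 64 of 107, and the Pearson r of the arms was 0.03 (rho = 0.16), a description over 107 pairs that share their libraries. The median absolute difference between the arms was 0.67 on the log2 scale. It was at least 1 in 38 pairs and at least 2 in 9.

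The hairpin of miR-340 showed the split most clearly among those with high counts. miR-340-5p fell by 2.93 on the log2 scale, while miR-340-3p stood at 63.5 and 41.8 CPM at 24 h and 109.9 and 90.7 CPM at 48 h, and the log2 fold change was 0.92 ± 0.28 (SE; adjusted p = 0.00765). miR-340-5p had 16.7 and 20.3 reads for each read of miR-340-3p at 24 h, and 1.23 and 1.27 at 48 h. The log2 fold change of miR-340-3p was 0.78 with siRNA 1 at 48 h left out (adjusted p = 0.193) and 0.64 with siRNA 2 at 24 h left out (adjusted p = 0.174), and neither was called. In the miR-671 hairpin, in an exon of CHPF2 at chr7:151238449-151238471 (+ strand) for the 5p arm, miR-671-5p fell by 2.44 and miR-671-3p had a log2 fold change of 1.27 ± 0.30 (SE; adjusted p = 0.000539). miR-671-5p had more reads than miR-671-3p in both 24 h libraries (ratios of 1.10 and 1.37) and fewer in both 48 h libraries (0.136 and 0.0613). For the miR-222 hairpin, miR-222-3p, known for targeting the cell cycle inhibitor CDKN1B, stood at 2499 and 2001 CPM at 24 h and 4823 and 4068 CPM at 48 h and rose (log2 fold change 0.98 ± 0.22 (SE; adjusted p = 0.000267)), while miR-222-5p fell by 1.40. Without siRNA 2 at 24 h miR-222-3p was not called (0.81, adjusted p = 0.117), and the call of miR-222-5p held only in the fit without siRNA 1 at 24 h when libraries were left out. miR-18a-5p fell by 1.83 and miR-18a-3p rose by 0.80 (adjusted p = 0.048), a call that was lost whichever library was left out (0.48 to 1.08). The fifth opposite pair, miR-100, rests on few reads: miR-100-3p had 14 and 24 reads at 24 h and 3 and 0 at 48 h, a rate ratio of 9.91 (95% exact Poisson interval 3.15 to 50.2, counting error only). Its call was lost without siRNA 2 at 48 h (-2.39). Without either library of 24 h it was below the count filter and not tested.

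**Figure D4:**
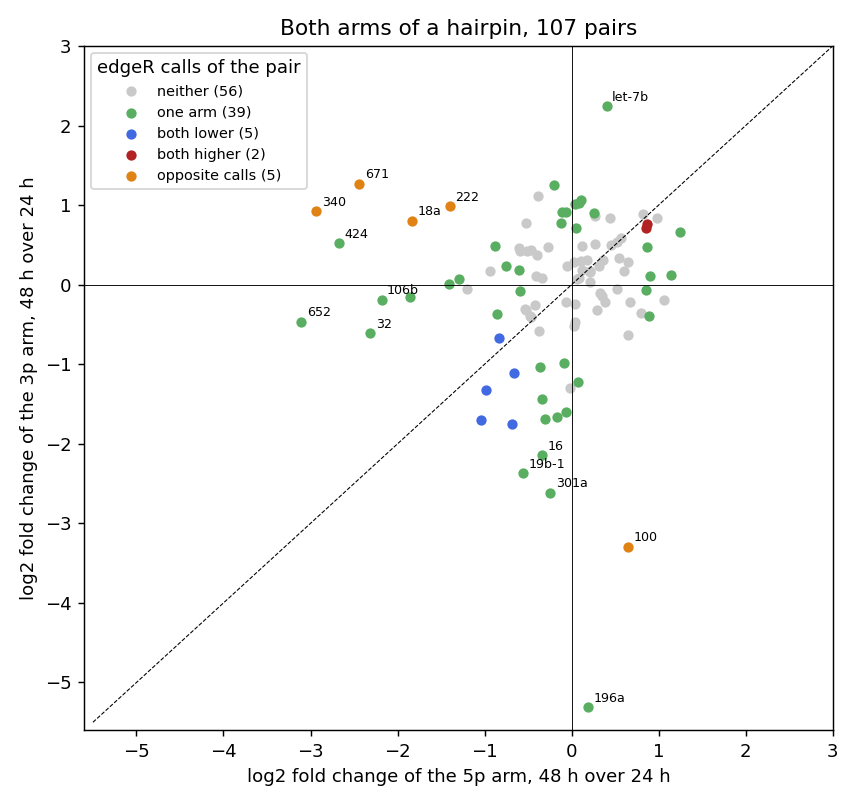
Log2 fold change of the 3p arm (y axis) against that of the 5p arm (x axis) for 107 hairpins, 1 point each, coloured by the calls of the pair; the dashed line marks equal change and names mark the 14 pairs that differ most. The orange points of the 5 pairs called in opposite directions lie in the upper left and lower right, and most large changes of 1 arm sit near 0 on the other axis.

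In some hairpins the split rested on few reads at 48 h. miR-196a-5p, of the HOX clusters, stood at 569 and 532 CPM at 24 h and 557 and 699 CPM at 48 h and did not pass the test (adjusted p = 0.581). miR-196a-3p had 38 and 24 reads at 24 h and 0 and 1 read at 48 h, a rate ratio of 48.5 (95% exact Poisson interval 8.39 to 1947). Its call was lost without siRNA 2 at 24 h (-5.39), and without siRNA 1 at 24 h it was below the count filter and not tested. In the miR-652 hairpin, miR-652-5p had 75 and 30 reads at 24 h and 4 and 5 at 48 h, while miR-652-3p did not pass the test, with a log2 fold change of -0.47 ± 0.27. The pairs in which both arms fell were those of let-7g, miR-7-1, miR-98, miR-17 and miR-148b, and those in which both rose were miR-193b and miR-365a. Of the falls, let-7g-5p (-0.41 to -0.98) and miR-148b-3p (-0.39 to -0.97) lost their calls whichever library was left out. The calls of miR-148b-5p, miR-98-5p, miR-98-3p and miR-17-3p held only in the fit without siRNA 1 at 24 h.

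The hairpins of miR-193b and miR-365a lie together at chr16:14303967-14309371, and all 4 of their tested strands rose, beside 12.4% higher over all tested miRNAs. miR-193b-3p stood at 339 and 479.5 CPM at 24 h and 609 and 732 CPM at 48 h, and the log2 fold change was 0.71 ± 0.24 (SE; adjusted p = 0.0156), and the 4 log2 fold changes lay within 0.16 of each other. The counts of miR-365a-3p are uncertain, since miR-365b-3p has the same sequence. Leaving out any 1 library ended the calls of miR-193b-3p (log2 fold changes 0.42 to 0.96) and of miR-365a-3p (0.585 to 0.85). miR-193b-5p lost its call without siRNA 1 at 48 h (0.76), siRNA 2 at 24 h (0.68) or siRNA 2 at 48 h (0.94). The call of miR-365a-5p was lost without siRNA 1 at 48 h (0.48) or siRNA 2 at 24 h (1.03).

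The fold changes varied with base composition. Across the 437 miRNAs the Pearson r of log2 fold change with the G and C content of the mature sequence was 0.37 (rho = 0.37), and it was 0.37 for siRNA 1 and 0.33 for siRNA 2 alone. Of the 41 miRNAs with under 35% G and C, 20 fell and 3 rose, with a median of -0.88, beside 16.7% lower and 12.4% higher over all tested miRNAs. Of the 53 with at least 65%, 1 fell and 6 rose, with a median of 0.39. Called falls had a median of 40.9% G and C, called rises 52.3% and the rest 50%. The read-weighted G and C content of the libraries was 40.7% and 40.1% at 24 h and 42.2% and 42.7% at 48 h, without overlap. Whether this reflects the cells or the making of the libraries was not tested.

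**Figure D5:**
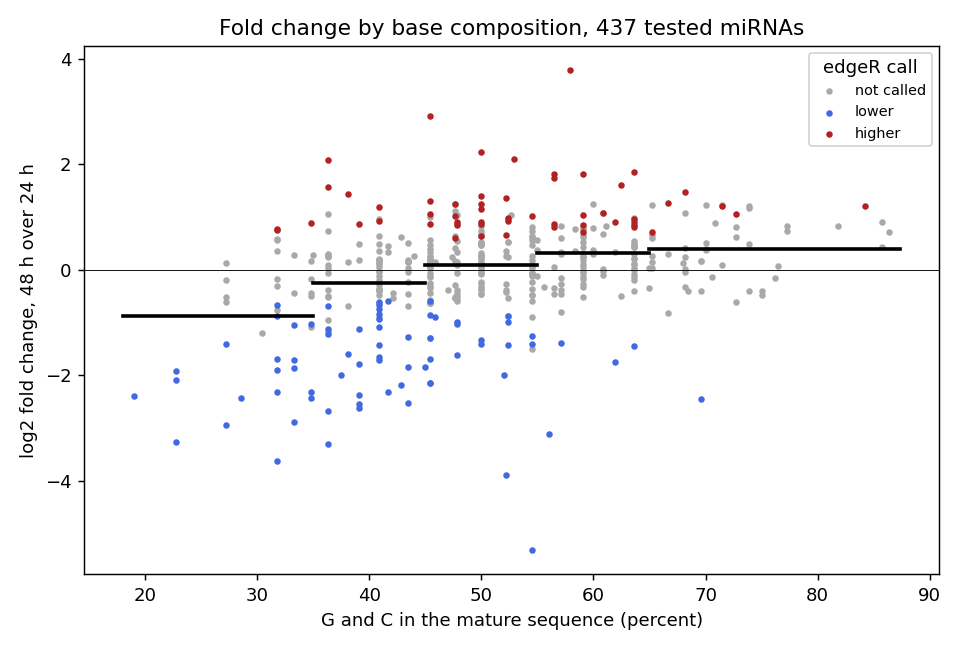
Log2 fold change of 48 h over 24 h (y axis) against the percentage of G and C in the mature sequence (x axis) for the 437 tested miRNAs, coloured by edgeR call; black lines are the medians of 5 ranges of G and C content. The medians rise from -0.88 under 35% to 0.39 at 65% and above, and blue points are dense on the left.

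With a linear trend on GC content taken out of each library, 122 miRNAs were called and 95 of them were among the 127. The largest falls became smaller but stayed called: miR-374a-3p (22.7% G and C) moved from -3.25 to -2.35, miR-340-5p (27.3%) from -2.93 to -2.17, miR-542-3p (31.8%) from -3.61 to -2.99 and miR-590-3p (19.0%) from -2.38 to -1.37. miR-671-5p (69.6%) moved from -2.44 to -2.96. Of the rises, miR-3615 (71.4%) moved from 1.21 to 0.64 and miR-1260b (57.9%) from 3.79 to 3.62.

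Calls also differed within other seeds. The seed ACCCGUA of miR-99a-5p, miR-100-5p and miR-99b-5p had 2 rises among 3. The seed UAUACAA of the let-7 passenger strands let-7b-3p, let-7a-3p, let-7f-1-3p and miR-98-3p had 1 rise and 1 fall among 4. Shares over all tested miRNAs were 12.4% higher and 16.7% lower.

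At the edge of the count filter, miR-579-5p had the lowest mean count that was tested, 10, with 15 and 8 reads at 24 h and 8 and 9 at 48 h. Just outside it, miR-200a-3p had a mean of 9.75, with 4 and 7 reads at 24 h and 18 and 10 at 48 h, and was not tested. Its relative miR-200b-3p, an epithelial miRNA, stood at 5.08 and 2.07 CPM at 24 h and 15.4 and 16.8 CPM at 48 h, and the log2 fold change was 2.09 ± 0.51 (SE; adjusted p = 0.000757), on 18 and 5 reads at 24 h. With each library left out it ran from 1.63 to 2.87, and its call was lost without siRNA 2 at 24 h (1.63, adjusted p = 0.0713). miR-200c-3p did not pass the test (adjusted p = 0.733).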

How the data were processed

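Small RNA of HepG2 cells was sequenced, per the labels, with an NEB ligation kit from total RNA. The deposited tables hold raw read counts per mature miRNA, 1 table per library. No aligner, counter or build is given in the sources used here. Summary lines that name no miRNA (73.5% to 84.8% of the reads of the 4 libraries without a feature) stayed out of library sizes and tests. The 4 libraries were fitted with time as the factor in edgeR 4.0.16 (R 4.3.3), scaled by TMM and tested by quasi-likelihood, with Benjamini-Hochberg adjustment over the 437 miRNAs whose mean count reached 10, at a threshold of 0.05. Each SE is the absolute log2 fold change divided by the square root of F. CPM of the 36 h and untreated libraries used the same scale.

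The miRNAs and lists were chosen with earlier results of these data known. Named are 12 rises and 12 falls, the largest among called miRNAs with no overlap and a mean count of 50 or more, the 8 most abundant, list members as examples and opposite arms. Others were chosen after their values were seen. Alternatives were DESeq2 1.42.0, limma-voom 3.58.1, other scales and filters, each library left out, all 7 libraries, removal of a GC trend, thinning and the siRNA number as a block. The scripts were tested on simulated data. Hosts are from GENCODE on the same strand as the hairpin.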

Additional observations from a re-analysis of the deposited data

Results flagged for a closer look

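For miR-12136 the siRNAs differed in the size of the change: 48 h minus 24 h was 1.56 on the log2 scale with siRNA 1 and -0.0060 with siRNA 2. For let-7a-5p the change was -0.17 with siRNA 1 and 0.23 with siRNA 2. With 1 library per siRNA and time these differences were not tested.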

How the results depend on the processing

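The number of called miRNAs was 127 and ranged from 20 to 132 when each library was left out in turn (4 to 52 higher and 16 to 80 lower, against 54 and 73, with 20 to 105 of the calls shared with the 127). It was 61 with all reads as the scale (8 higher), 157 with total counts (104 higher) and 0 in the fit of all 7 libraries (0 higher, 0 lower). Elsewhere it lay within 1.5 times: 106 with DESeq2 (105 shared), 121 with limma-voom, 124 with DESeq2 size factors, 125 without a count filter, 96 at a mean count of 50, 126 with robust moderation, 122 with a GC trend removed and 110 after thinning. The siRNA deviations at 24 h and 48 h correlated at -0.23 across miRNAs. With 1 library per siRNA and time, this cannot decide whether libraries with the same siRNA are paired. The siRNA number as a replicate block gave 99 calls (41 higher, 58 lower), and a crossed pairing, added after the data were seen, gave 162 (75 and 87). Outside the fit of all 7 and the crossed pairing, 19 miRNAs were called in each of 15 alternatives that tested them (4 higher, 15 lower), let-7b-3p, miR-1260b, miR-615-3p, miR-7706, miR-101-3p and miR-20a-5p among them. let-7a-5p, not called, turned to -0.23 with all reads, -0.0037 without a filter, -0.042 at a mean count of 50, -0.011 after thinning, -0.023 with all 7 libraries and -0.074 without siRNA 2 at 24 h, and ranged from -0.093 to 0.15 when each library was left out. The causes were not tested. Of 171 miRNAs with a mean count under 50, 36 were called, against 91 of 266 above, and the part of depth in this was not tested.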

Other observations

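A scan of 4-letter strings in the mature sequences, done after the values were seen and with no test, ranked 238 strings held by at least 12 tested miRNAs by their median log2 fold change. The lowest was GAUA, held by 15 miRNAs (3.43% of those tested) with 14 different seeds: 10 fell, 0 rose and the median was -1.71. They include miR-542-3p, miR-101-3p, miR-301b-3p, miR-18a-5p and miR-374a-5p, and their median G and C content was 33.3%. The highest was CGUG, held by 17 miRNAs (3.89%) with 17 different seeds: 8 rose, 0 fell, and the median was 0.84 with a median G and C content of 60.9%. Among those are miR-139-5p, miR-149-5p, miR-1307-3p and miR-4443. The strings go along with base composition, and the part of each was not tested.

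Outside the 24 h and 48 h libraries, miR-1-3p, the main miRNA of muscle, stood at 862 CPM in the library of siRNA 1 at 36 h. The 4 tested libraries had 19.8 to 27.7 CPM, with 52.3 CPM with siRNA 2 at 36 h and 21.0 CPM in untreated cells. miR-206, a skeletal muscle miRNA, stood at 6.55 CPM in the same library and at 0 or 1 read in the 4 tested ones. The other muscle markers were low in that library. miR-133a-3p stood at 2.52 CPM, miR-499a-5p at 4.53 CPM, and miR-133b, miR-208a-3p and miR-208b-3p at 0. The source of the miR-1-3p reads was not tested.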
